A study of Mus musculus with 16 samples.

Results

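White adipose was profiled by ATAC-seq, an assay in which a transposase cuts accessible DNA, in fed and in fasting mice, and its peaks were compared between the 2 states. The 2 libraries belong to a series of 16, with 8 tissues in each state. All mice were male C57BL/6 animals, acquired at 12 weeks of age and kept 10 to 14 days before use. The fed group had food ad libitum and the fasting group had none for 24 h. Tissue powder of 3 mice was pooled for each state, so each side is 1 library and no difference could be tested. The adipose depot was not given in the sources used here, and whole tissue was used, so every cell type of the depot contributed.

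Deposited peaks that covered identical coordinates were joined into 1 region. A region was ranked by the percentile of its peak p-value within its own list, from 0 (weakest) to 100 (strongest). The set of each state held the regions with q under 0.01, which numbered 156687 in the fed and 148599 in the fasting library. A region of 1 set that no deposited peak of the other state overlapped by 1 bp was called fed-only or fasting-only. There were 56084 fed-only regions, 35.8% of the fed set, and 45396 fasting-only regions, 30.5% of the fasting set. Summit levels are given as multiples of the background, which was 10.02 tags in the fed and 5.874 tags in the fasting library. The fed list ended at 28 summit tags, 2.79 times its background, and the fasting list at 15 tags, 2.55 times its own, so a rank of 0 means a level below these floors and not closed chromatin.

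White adipocytes store triglyceride when insulin is high and release fatty acids when insulin falls and catecholamines and glucocorticoids rise. The switch runs through hormone receptors at the surface, lipases at the lipid droplet, and nuclear factors such as PPARG and the C/EBP proteins that bind distal enhancers. In male mice the gonadal fat pad adjoins the epididymis, the duct in which sperm mature, whose epithelium secretes lipocalins, defensins, ribonucleases and protease inhibitors under androgen control. The epididymis and the kidney both derive from the nephric duct system, which depends on Pax2 and Pax8.

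The label was checked against adipocyte genes. All 10 adipocyte markers had a promoter region in both lists, and none differed in rank by 20 points or more. A promoter rank is the highest rank of a region within 3000 bp of an annotated start. Adipoq, which encodes adiponectin, had 182 summit tags in the fed library, 18.2 times background, and 100 tags in the fasting library, 17.0 times background. Lep, which encodes leptin, ranked 89.5 with 190 tags in the fed library and 88.4 with 79 tags in the fasting library. Once scaled to background, the Adipoq level was thus close in the 2 libraries and the Lep level was 19.0 in fed against 13.4 in fasting. Fold enrichment, a ratio to the local background, was close at both genes. It was 5.88 in fed and 5.67 in fasting at Lep and 4.68 and 4.69 at Adipoq. The summed level over the 10 promoters was 298 times background in fed and 302 times in fasting.

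Genes of the epididymis set the libraries apart. Of 30 epididymis genes, 22 had a promoter region in the fed list and 7 in the fasting list. Their mean promoter rank was 46.6 in fed and 15.1 in fasting, and their summed level was 211 and 67.8 times background. In the 14 libraries of other tissues, between 5 and 14 of the 30 had a region, with mean ranks from 8.12 to 22.1, so the fasting value lay inside that range and the fed value above it. At 17 of the 30 the rank was at least 20 points lower in fasting, against 4.63% of all 21951 protein-coding genes, and at none of the 30 was it 20 points higher, against 4.21% of all genes. The median difference was -26.62 points, and it was 0.00 when only regions within 1000 bp of a start were counted. Several of these genes lie in clusters and share regions, so they are not independent.

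The sequences of 4 fed-only regions at epididymis genes are shown, since they carry this difference. Each is 121 bases of the reference forward strand (GRCm38) centred on the summit. In all printed sequences capitals mark the words named beside them, and these 4 hold none of the words searched. No deposited peak of another tissue overlapped these 4 regions.
Ros1, chr10:52193136-52193256: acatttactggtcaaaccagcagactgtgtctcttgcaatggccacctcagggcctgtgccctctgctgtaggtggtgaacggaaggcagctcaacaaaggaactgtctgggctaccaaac
Lcn5, chr2:25657525-25657645: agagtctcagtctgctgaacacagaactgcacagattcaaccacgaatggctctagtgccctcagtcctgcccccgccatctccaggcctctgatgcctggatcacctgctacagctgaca
Spint4, chr2:164698261-164698381: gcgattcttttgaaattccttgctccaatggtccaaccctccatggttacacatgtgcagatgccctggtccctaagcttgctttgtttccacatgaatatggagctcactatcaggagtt
Adam7, chr14:68539923-68540043: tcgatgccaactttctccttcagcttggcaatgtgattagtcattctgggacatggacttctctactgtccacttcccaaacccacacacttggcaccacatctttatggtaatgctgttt

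Ros1 encodes a receptor tyrosine kinase required for the proximal epididymis to differentiate. Its strongest fed-only region, chr10:52192958-52193416 in an intron and 1760 bp from a start, had 153 tags, 15.3 times background, and a rank of 90.5. Lcn5 encodes a secreted lipocalin of the epididymis, and its region at chr2:25657364-25658050, 367 bp from a start, had 197 tags and a rank of 88.2 in fed. A weaker fasting region within 3000 bp of Lcn5 had 26 tags and a rank of 62.7. The protease inhibitor gene Spint4 had a promoter rank of 76.0 in fed and no region in fasting, and so did Adam7, a membrane protein gene, at 75.3. The Adam7 sequence is that of a region of 88 tags and rank 79.4 at 6242 bp from the start. Rnase9, which encodes a secreted ribonuclease-like protein, ranked 84.8 with 116 tags in fed and had no region in fasting.

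The same held at Lcn8 (70.8 in fed), Lcn12 (50.6), Crisp1 (46.9), Crisp4 (69.3), Bsph1 (62.3) and Ovch2 (60.3), each without a fasting region. Defensin genes followed, with Defb15 at 71.1 and Defb12 at 28.9, as did Cst8 at 31.7, Ces5a at 24.2 and Pate4 at 11.1. Eppin, a sperm-coating protease inhibitor gene, ranked 88.3 in fed and 60.6 in fasting, and Rnase12 ranked 76.5 and 31.3. Not every gene of the list followed: Gpx5, Lcn6, Lcn9, Cst11, Cst12, Adam28, Defb41 and Spag11b had no promoter region in either library. Defb42 ranked 92.4 and 84.3, Rnase10 ranked 91.8 and 95.7, and Teddm1a ranked 76.6 in fed and 95.1 in fasting. Regions at Defb42, Rnase10 and Teddm1a were also listed in brown adipose, with ranks of at least 83.3 in each state. Some genes lower in fasting were listed elsewhere too, as Lcn12 in brown adipose (49.4 in fed and 43.3 in fasting). In kidney, Eppin ranked 73.0 and 60.8, Cst8 58.0 and 64.8, Lcn5 54.4 and 17.0, and Ros1 40.7 and 10.5. Adam7, Spint4, Lcn8, Crisp1, Crisp4, Ovch2, Defb12, Defb15, Ces5a and Rnase12 had no promoter region in brown adipose or kidney.

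Genes of epithelia in general showed the same direction. Of 12 epithelium genes, all 12 had a region in fed and 11 in fasting, and 7 ranked at least 20 points lower in fasting, against 4.63% of all genes. Prom2, a membrane protein gene of epithelial protrusions, ranked 90.7 with 184 tags in fed and had no region in fasting. Grhl2, a grainyhead factor of epithelial identity, ranked 88.2 in fed and 22.8 in fasting. Cdh1, which encodes E-cadherin, ranked 90.7 and 52.0, and Epcam, an epithelial adhesion gene, ranked 88.0 and 43.6. The tight junction genes Cldn7 (80.3 and 48.2) and Cldn4 (47.9 and 22.8) and the keratin gene Krt18 (70.6 and 31.3) completed the 7. Krt8 (83.2 and 87.5) and Rab25 (88.1 and 89.6) did not share the direction. In brown adipose, fed and fasting, Grhl2 ranked 85.9 and 89.1, Cldn7 65.9 and 73.6 and Epcam 53.4 and 40.2. Cdh1 had a brown adipose promoter region in fasting alone (53.8), and Prom2, Cldn4 and Krt18 had none there.

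The 8 Wolffian duct factors were also split by state. Pax2, a paired-box factor of the nephric duct, ranked 86.6 with 164 tags in fed and had no region in fasting. Its partner Pax8 ranked 84.0 with 159 tags in fed and had none in fasting. Sim1 ranked 91.3 and 65.9. Of the regions nearest to Pax2 within 100 kb, 34 of 38 in the fed set were fed-only, and the fasting set held 1 region there. For Pax8 they were 23 of 24, with none in the fasting set. Gata3 (95.1 and 97.8), Lhx1 (85.6 and 94.2) and Wnt9b (82.8 and 92.1) ranked higher in fasting. Kidney libraries had promoter ranks of 92.5 and 92.9 at Pax2 and of 89.9 and 91.1 at Pax8. Pax2 was not limited to kidney, since its brown adipose promoter ranked 59.0 (fed) and 52.2 (fasting). Peaks of 6 other tissues (liver, muscle, brown adipose, heart, lung and kidney) overlapped the Pax2 region of 164 tags. Pax8 had no promoter region in brown adipose, and no peak of another tissue overlapped its region of 159 tags.

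The sequences at Pax8 and Prom2 are given because both regions had over 150 tags in fed and no fasting peak. The capitals in the Pax8 sequence mark the word AGGGGGC, the core of the CTCF motif, on the reverse strand.
Pax8, chr2:24476379-24476499: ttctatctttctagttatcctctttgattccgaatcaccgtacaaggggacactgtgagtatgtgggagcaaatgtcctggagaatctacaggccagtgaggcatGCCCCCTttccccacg
Prom2, chr2:127539149-127539269: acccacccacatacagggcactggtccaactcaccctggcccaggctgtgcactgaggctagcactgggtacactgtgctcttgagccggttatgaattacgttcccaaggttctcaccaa

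The fed-only regions were also counted by distance to such genes. Of the 56084 fed-only regions, 266 lay within 100 kb of a start of an epididymis gene, against 67 fasting-only regions, and 55818 lay farther away. Those 266 were 53.7% of the 495 fed regions near epididymis genes, set beside 35.8% for all fed regions. Near Wolffian duct factors 71.4% of 189 fed regions were fed-only, and near epithelium genes 44.3% of 420. The fasting-only shares near these lists were 22.3%, 34.6% and 20.9%, set beside 30.5% for all fasting regions. Fed-only regions were also counted without regard to the lists. Of windows of 200 kb, that with the most fed-only regions, chr2:152400001-152600000, held 38 of them among 46 fed regions, with 11 regions in the fasting set. It covers a cluster of beta-defensin genes (Defb19, Defb20, Defb21, Defb22, Defb23, Defb26, Defb28, Defb29 and Defb45), none of which was on the list. It also holds Sox12, Zcchc3, 6820408C15Rik and Gm17416, and the tissue of origin of its regions was not tested. In bulk tissue, fewer cells of a type and less accessibility per cell cannot be told apart, and the part of adjoining epididymis in the other fed-only regions was not tested.

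**Figure D1:**
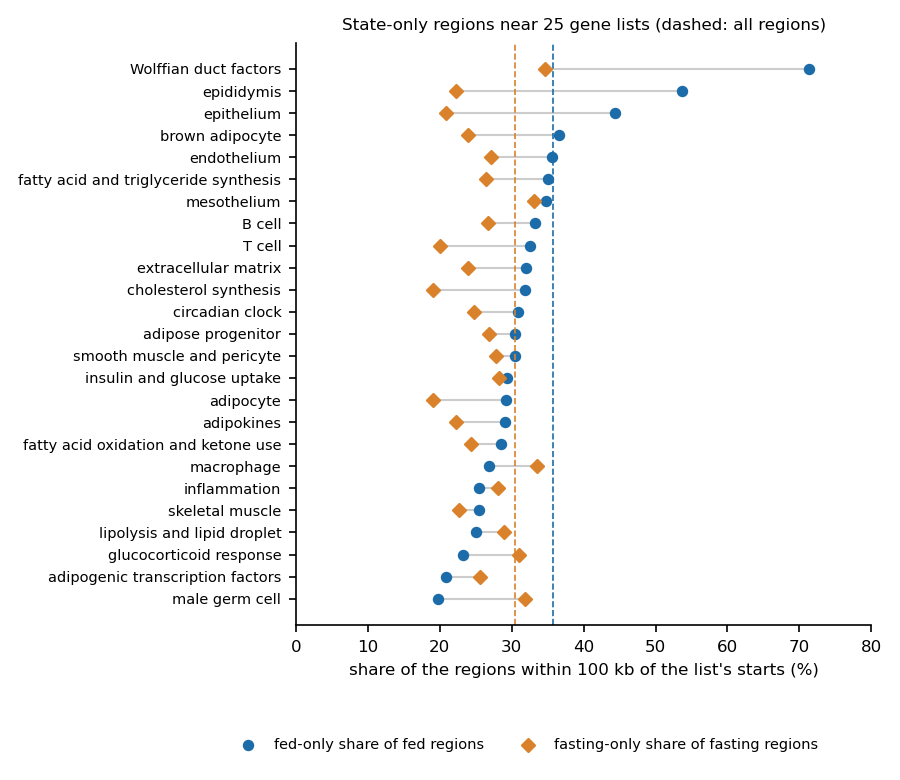
Share of the regions within 100 kb of each gene list (horizontal axis, percent) that were state-only, for 25 lists. Circles are fed-only among fed regions and diamonds fasting-only among fasting regions, and dashed lines give the shares over all regions (35.8% and 30.5%). The Wolffian duct, epididymis and epithelium lists have the highest fed-only shares.

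Depth moved with the state and with the counts. The fed library had the higher background, and its regions were wider (median 284 bp, against 213 bp in fasting). Fed-only regions were mostly of low rank, with a median of 31.1 and a median level of 4.49 times background. Fasting-only regions had a median rank of 36 and a median level of 3.40. Ranks of 80 or more were reached by 2944 fed-only but only 256 fasting-only regions. To lessen the part of depth, state-only regions were kept where their tags, scaled to the other library's background, would pass the weakest p of the other list with a Poisson chance of 99% or more. This left 16211 strong fed-only regions, 10.3% of the fed set, and 4713 strong fasting-only regions, 3.17% of the fasting set. The excess of fed-only regions was thus larger under this condition, and 16101 of the 16211 lay over 100 kb from epididymis genes. This condition was chosen after the data were seen, and the exact intervals given below cover counting error only.

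**Figure D2:**
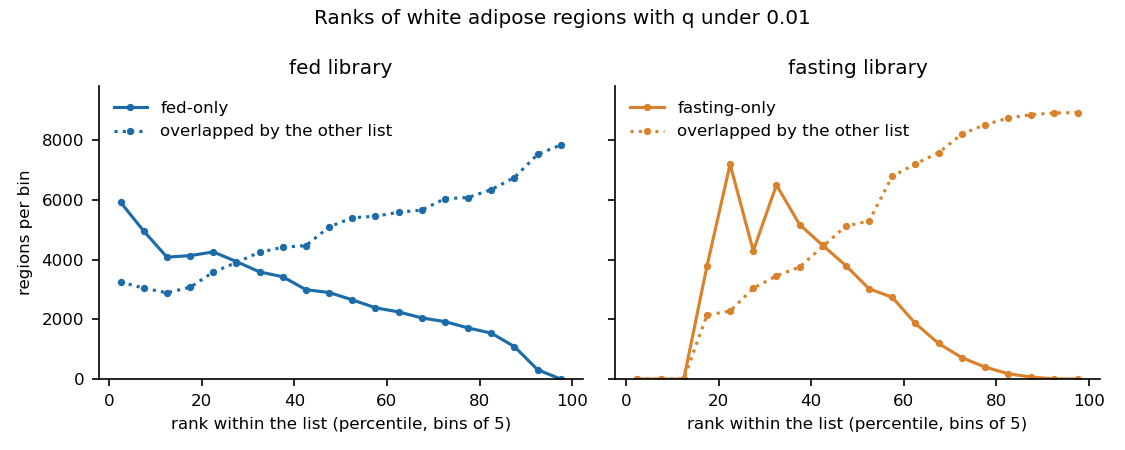
Number of regions per bin of 5 rank percentiles (vertical axis) against rank within the list (horizontal axis), for the fed library (left) and the fasting library (right). Solid lines are state-only regions and dotted lines regions that a peak of the other state overlaps. State-only regions thin out towards high ranks in both, and 2944 fed-only and 256 fasting-only regions reach rank 80.

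State-only regions lay away from promoters more often than shared ones. Of fed-only regions 27.4% (exact 95% interval 27.0 to 27.7) had their summit within 3000 bp of an annotated start, and of fasting-only regions 24.5% (24.1 to 24.9). Of regions that the other list overlapped, 38.3% (38.0 to 38.6) in fed and 40.4% (40.1 to 40.7) in fasting did so. Gene bodies outside promoters held 43.6% of fed-only and 45.4% of fasting-only regions, and 29.0% and 30.1% were intergenic. Chromosome X, which males carry as 1 copy, held 1.90% of fed-only and 1.12% of fasting-only regions, beside 1.70% of the fed and 1.49% of the fasting set.

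The other tissues set the 2 kinds of region apart. Of the strong fasting-only regions 57.5% (exact 95% interval 56.1 to 58.9) were overlapped by a brown adipose peak, but of the strong fed-only regions 18.7% (18.1 to 19.3). Of regions listed in both states 82.4% in fed and 83.5% in fasting were, so both kinds lay below the usual share. Liver peaks overlapped 38.4% and 25.6%, muscle peaks 37.0% and 23.4%, heart peaks 33.6% and 24.5%, lung peaks 39.7% and 26.5%, and spleen peaks 29.2% and 27.7%. Kidney peaks overlapped 43.4% (42.6 to 44.1) of the strong fed-only and 22.7% (21.5 to 23.9) of the strong fasting-only regions, beside 62.2% and 63.4% of regions listed in both. Kidney was the 1 tissue of the 7 with the larger share on the fed side. A peak in kidney and in no other tissue was found for 9.55% of strong fed-only but 0.530% of strong fasting-only regions, beside 0.451% and 0.438% of those listed in both. A peak in brown adipose and in no other tissue was found for 1.88% and 11.8%, beside 5.32% and 5.23%. No deposited peak of the 7 other tissues lay over 27.8% (27.1 to 28.4) of the strong fed-only and 12.2% (11.3 to 13.2) of the strong fasting-only regions. Most strong fed-only regions thus had no peak in the other fat tissue, and most strong fasting-only regions had one.

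Taken in order, the 16211 strong fed-only regions comprised 226 near epididymis, epithelium or Wolffian duct genes, 3013 others with a brown adipose peak, and 5020 with a kidney but no brown adipose peak. A further 3541 had a peak of another tissue alone and 4411 had none. Of the 4713 strong fasting-only regions, 19 lay near those genes, 2698 had a brown adipose peak, 259 a kidney but no brown adipose peak, 1166 a peak of another tissue alone, and 571 none. Each class held more fed-only than fasting-only regions. The part of other cell types in these classes was not tested. Over all state-only regions, without the depth condition, brown adipose peaks overlapped 26.1% of fed-only and 34.9% of fasting-only regions, and kidney peaks 37.0% and 18%.

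**Figure D3:**
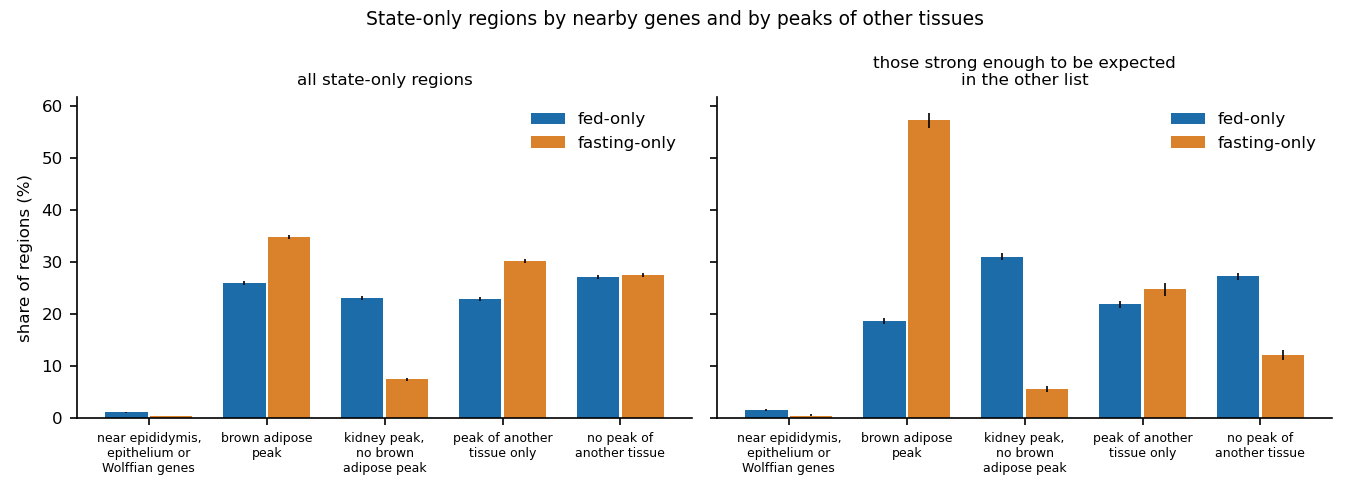
Share of state-only regions (vertical axis, percent, with exact 95% intervals for counting error) in 5 classes by nearby genes and by peaks in other tissues, for all state-only regions (left) and for those strong enough to be expected in the other list (right). Among the latter, 57.2% of fasting-only but 18.6% of fed-only regions fall in the brown adipose class.

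The strongest fed-only regions lay outside epididymis genes, so the 5 of highest rank were the same when regions near those genes were left out. The first, chr6:65063794-65064320 in an intron of Smarcad1, a chromatin remodeller gene, had 188 tags and a rank of 94.4 and overlapped a spleen peak. The next lay at chr1:62668322-62668791, 34711 bp from the semaphorin receptor gene Nrp2, with 168 tags, and at chr15:51484050-51484732, 306151 bp from Eif3h, with 170 tags. Both overlapped brown adipose peaks. An intron of Dok5 held the region of most tags among the 5, with 202 at chr2:170802806-170803477, and the fifth region, with 169 tags, was 8831 bp from Neto1. Their ranks ran from 93.2 to 94.4.

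The strongest fasting-only regions had fewer tags, from 65 to 134. The first, chr1:162509258-162509915, 31563 bp from the dynamin gene Dnm3, had 93 tags, 15.8 times background, and a rank of 94.7, and peaks of 5 other tissues including brown adipose overlapped it. A region in an intron of Nfyb, which encodes a subunit of NF-Y, 1836 bp from a start, had 107 tags and a rank of 91.2, and one 91097 bp from Plpp3, a lipid phosphatase gene, had 75 tags and a rank of 91.0. Both overlapped brown adipose peaks. The other 2 of the first 5 were 108 and 114 bp wide, in introns of Acacb (rank 92.3) and Auts2 (rank 91.1), and consisted to 68.5% and 85.1% of bases that the reference marks as repeats. No other tissue had a peak there, and reads of repeats can be placed wrongly. At least 50% repeat sequence was found in 6.64% of fasting-only and 3.3% of fed-only regions, and in 2.21% and 2.07% of those overlapped by the other list. Beyond them the next regions of under 50% repeat lay 225652 bp from Trib2 and 107098 bp from Gpr65, each at rank 90.3.

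Sequences of 5 fasting-only regions are shown, the 3 of highest rank without many repeats and the strongest at Fam13a and Celf2, since they hold words that such regions held more often. Capitals mark TGANTCA (the AP-1 word, bound by FOS and JUN proteins) at Dnm3, and TTGCNNAA (the C/EBP word, bound by factors of adipocyte differentiation) at Fam13a and, on the reverse strand, at Nfyb and Plpp3. At Celf2 they mark, both on the reverse strand, the C/EBP word and AGGTCA, the core that nuclear receptors such as PPARG bind. The Fam13a region had 64 tags and a rank of 80.5, the Celf2 region 49 tags and a rank of 85.1, and both overlapped brown adipose peaks.
Dnm3, chr1:162509537-162509657: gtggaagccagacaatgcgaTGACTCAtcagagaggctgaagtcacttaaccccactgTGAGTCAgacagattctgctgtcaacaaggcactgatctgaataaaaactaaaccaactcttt
Nfyb, chr10:82759083-82759203: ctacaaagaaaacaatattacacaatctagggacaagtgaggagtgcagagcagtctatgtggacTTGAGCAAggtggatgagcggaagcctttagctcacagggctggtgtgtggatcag
Plpp3, chr4:105248384-105248504: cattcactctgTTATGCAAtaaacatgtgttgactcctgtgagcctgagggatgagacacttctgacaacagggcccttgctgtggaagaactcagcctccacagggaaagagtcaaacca
Fam13a, chr6:59030180-59030300: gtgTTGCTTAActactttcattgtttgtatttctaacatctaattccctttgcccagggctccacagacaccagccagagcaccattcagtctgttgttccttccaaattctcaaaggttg
Celf2, chr2:6646440-6646560: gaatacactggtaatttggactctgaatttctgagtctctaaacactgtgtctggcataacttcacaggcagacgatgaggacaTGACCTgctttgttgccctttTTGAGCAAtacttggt

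Words were counted within 100 bp of the summit in regions over 3000 bp from any start. Letter N stands for any base, both strands were searched, and a match is a description and not a bound site. The C/EBP word was held by 22.9% (exact 95% interval 21.5 to 24.4) of strong fasting-only regions and by 8.37% (7.89 to 8.88) of strong fed-only regions. It was held by 15.3% (15 to 15.6) of fed regions that the fasting list overlapped, and by 12.6% of all distal fed and 14.7% of all distal fasting regions. The AP-1 word was held by 16.9% (15.6 to 18.2) and 6.83% (6.39 to 7.30), with 9.84% in overlapped fed regions, 8.68% in all fed and 10.4% in all fasting regions. The forkhead word GTAAACA, which FOXO proteins bind, was held by 5.64% (4.89 to 6.46) and 2.0% (1.76 to 2.26), with 2.56% and 3.07% in all fed and all fasting regions. The PU.1 word GAGGAAGT, bound by a myeloid factor, was held by 3.67% (3.07 to 4.36) and 1.84% (1.60 to 2.09), with 2.39% and 2.88% in all.

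Without the depth condition these shares were closer, with the C/EBP word in 13.1% of fasting-only and 8.61% of fed-only regions and the AP-1 word in 10.7% and 6.93%. The CTCF word was held by 2.20% of strong fasting-only and 1.76% of strong fed-only regions, both below the 5.34% of overlapped regions in either list. Its share was 4.15% in all fed and 4.34% in all fasting regions. The nuclear receptor core AGGTCA was held by 17.4% (16.2 to 18.7) and 15.7% (15 to 16.3), with 15.2% and 15.6% in all. G and C made up 47.2% of the bases in strong fasting-only and 49.8% in strong fed-only windows, and the AT-rich word TAAAAATA of MEF2 factors was held by 1.5% and 1.63% (1.75% and 1.67% in all). The E-box CACGTG was in 3.47% of strong fasting-only and 2.62% of strong fed-only regions (3.09% of all fed and 3.36% of all fasting regions), the NF-Y word CCAATCA in 2.20% and 1.91% (2.14% and 2.11%), and the cyclic AMP response element TGACGTCA in 0.376% and 0.115% (0.216% and 0.254%). The EBF palindrome TCCCNNGGGA was in 1.24% and 0.606% (1.03% and 1.08%). The NF1 palindrome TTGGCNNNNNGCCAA was in 0 of 3457 strong fasting-only regions, which allows up to 0.107%, and in 9 of 12205 strong fed-only regions (0.0739% of all fed and 0.0449% of all fasting regions).

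**Figure D4:**
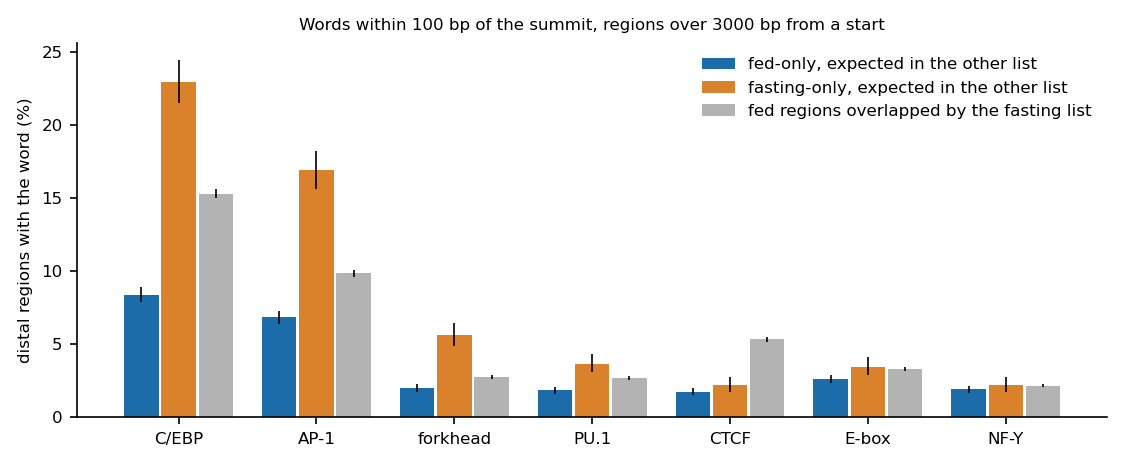
Share of distal regions (vertical axis, percent, with exact 95% intervals for counting error) that hold each of 7 words within 100 bp of the summit. Bars are strong fed-only regions, strong fasting-only regions and fed regions that the fasting list overlaps. The C/EBP word is held by 22.9% of the fasting-only and 8.37% of the fed-only regions.

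A few words were more frequent on the fed side. The palindrome GAACANNNTGTTC, which glucocorticoid and androgen receptors bind, was held by 78 of 12205 strong fed-only regions (0.639%, exact interval 0.505 to 0.797) and by 2 of 3457 strong fasting-only regions (0.0579%, 0.00701 to 0.209). Over all state-only regions it was in 146 of 40732 fed-only and 5 of 34277 fasting-only regions, with 0.205% of overlapped fed regions, 0.266% of all fed and 0.120% of all fasting regions. The longer palindrome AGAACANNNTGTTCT was in 36 fed-only and 2 fasting-only regions, with 0.0632% and 0.0313% in all. The grainyhead word AACCGGTT was in 82 fed-only and 13 fasting-only regions, with 0.118% and 0.0626% in all. Of these words, GAACANNNTGTTC and AACCGGTT were added after the counts of the others had been seen. The longer palindrome contains the shorter one, so its matches are counted under both.

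The strongest distal fed-only region with the receptor palindrome is shown, with the palindrome in capitals. It lay in an intron of Trappc9, had 158 tags and a rank of 92.2, and overlapped kidney, liver, spleen and heart peaks but no brown adipose peak.
Trappc9, chr15:73038721-73038841: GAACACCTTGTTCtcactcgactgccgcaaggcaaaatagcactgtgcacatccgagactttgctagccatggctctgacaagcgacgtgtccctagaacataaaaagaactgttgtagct

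The number of state-only regions per gene was uneven. By regions nearest to a gene within 100 kb, fed-only regions were most numerous at Zbtb20, a zinc finger repressor gene, with 58 fed-only and 28 fasting-only regions. The 58 were among 143 fed regions there, beside a fed-only share of 35.8% over all fed regions. Nav2 followed with 49 and 11, Ank3, which encodes a membrane anchor, with 45 and 7, Auts2 with 43 and 11, and Arhgef28 with 40 and 8. The fed set held 82 regions at Nav2, 78 at Ank3, 77 at Auts2 and 77 at Arhgef28. Strong fed-only and fasting-only regions numbered 8 and 3 at Zbtb20, and 12 and 1 at both Nav2 and Ank3. They numbered 15 and 2 at Auts2 and 14 and 1 at Arhgef28. Fasting-only regions were most numerous at Celf2, an RNA-binding protein gene, with 65 fasting-only and 14 fed-only regions, of which 10 and 2 were strong. Foxp1, a forkhead repressor gene, had 55 and 19, Utrn, the utrophin gene, had 42 and 21, and Arhgap26 had 39 and 16. Of these, 3 and 0 were strong at Foxp1 and 3 and 1 at Utrn, while at Arhgap26 2 strong fasting-only and 4 strong fed-only regions turned the balance. The fasting set held 112 regions at Celf2, 120 at Foxp1, 93 at Utrn and 132 at Arhgap26. Over all fasting regions the fasting-only share was 30.5%. Pde3b, which encodes the phosphodiesterase through which insulin restrains lipolysis, had 39 fasting-only and 5 fed-only regions, 2 and 1 of them strong. The fasting set held 56 regions at Pde3b. The strongest fasting-only region at Pde3b, 24900 bp from a start in an intron, had 45 tags and a rank of 63.7.

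By windows of 200 kb, the largest fasting-only count was at chr15:3200001-3400000, with 45 of 80 fasting regions, at Ghr, the growth hormone receptor gene, and Ccdc152 and Selenop. The Pde3b and Cyp2r1 window chr7:114400001-114600000 followed with 43 of 65. Windows at the prolactin family genes Prl2c2 and Prl2c3 (39 of 48) and at Sprr2a1, Sprr2a2 and Sprr2a3 (37 of 61) hold near-identical gene copies, so the placement of their reads is uncertain. The fifth was chr9:50800001-51000000 at Sik2, a kinase gene of adipocytes, Alg9 and Ppp2r1b, with 34 of 86. After the defensin window, fed-only counts were largest at Agpat3 (35 of 68), at Kidins220 and Mboat2 (33 of 41), at Fhad1, Kazn and Tmem51 (33 of 52) and at Wwc1 (31 of 38). All these windows were chosen for their counts, and over all regions the shares were 30.5% in fasting and 35.8% in fed. The fasting windows also held 3 to 12 fed-only regions, and the fed windows 1 to 5 fasting-only regions. The highest rank of a state-only region was 56.3 to 69.3 in the fasting and 77.4 to 90.4 in the fed windows.

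Promoters of fat metabolism genes ranked high in both libraries, where percentiles leave little room to differ. No gene of 9 of the 11 pathway lists ranked 20 points higher or lower, and the 9 were counted together for that reason. They hold 147 different genes, of which 144 had a promoter region in each library. Of the 147, 89 ranked higher and 55 lower in fasting, and the median difference was 0.27 points, beside 0.15 for all genes listed in both. The largest differences were at Lcn2, a lipocalin secreted by fat, with 64.1 in fed and 83.4 in fasting, and at Ppargc1a, a coactivator of oxidative genes, with 91.4 and 79.0.

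Among 22 genes of lipolysis and the lipid droplet, the median difference was 0.98 points, which was 5.92 when regions were ranked by fold enrichment, and the summed level was 620 times background in fed and 608 in fasting. Pnpla2, which encodes the first lipase of triglyceride breakdown, ranked 95 in fed and 95.3 in fasting, and Lipe, hormone-sensitive lipase, ranked 96.1 and 95.7. Cidec, which enlarges lipid droplets, had 274 tags, 27.3 times background, in fed and 256 tags, 43.6 times background, in fasting. Plin5, a droplet protein linked to mitochondria, ranked 83.7 and 79.9. Of 20 genes of fatty acid and triglyceride synthesis, 8 ranked higher and 12 lower in fasting, with a median of -0.17, which was 2.63 by fold enrichment. Their summed level was 742 times background in fed and 555 in fasting, beside a median log2 difference of -0.25 at all promoter regions of both libraries. Summed levels were also lower in fasting for clock (762 and 555), cholesterol (811 and 599) and insulin and glucose uptake genes (694 and 523). Fasn, fatty acid synthase, had 47.6 times background in fed and 26.7 times in fasting, and Scd1, a desaturase, had 28.3 and 16.5. Acaca, which makes malonyl-CoA, had 60.5 and 51.6, and its paralog Acacb had 37.3 and 40.0. Fold enrichment over local background was 6.27 and 6.42 at Fasn and 11.6 and 12.1 at Acaca. It was 8.09 and 5.4 at Scd1 and 9.52 and 6.18 at Acacb. The ranks of the 20 genes stayed within 7 points.

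Of 18 glucocorticoid response genes, 13 ranked higher and 5 lower in fasting, with a median of 0.73. The median was -0.08 by fold enrichment and 0.12 with equal numbers of regions ranked in each list. Their summed level was 684 in fed and 642 in fasting. Pdk4, which shuts glucose carbon out of the mitochondrion, had a level of 23.8 in fed and 34.9 in fasting, and Zbtb16 had 41.7 and 51.9. Fkbp5, a co-chaperone of the receptor, had 43.5 and 38.1. Fold enrichment over local background went the other way at Pdk4, with 9.7 in fed and 8.16 in fasting. It was 6.96 and 7.16 at Zbtb16 and 9.35 and 8.01 at Fkbp5. Per2 and Dbp, clock genes, ranked 93.5 and 92.6 in fed and 90.5 and 89.3 in fasting. Medians were 2.02 for the 12 adipokines (0.08 with a window of 1000 bp and 5.10 by fold enrichment), 0.78 for the 14 adipogenic transcription factors, -0.36 (1.05 by fold enrichment) for the 18 clock genes and 1.72 (0.58 with equal numbers of regions ranked and 4.13 by fold enrichment) for the 16 matrix genes. They were 0.02 for the 16 insulin and glucose uptake genes and 0.13 for the 16 fatty acid oxidation genes, and turned to -0.27 and -0.05 with equal numbers of regions ranked in each list. Among the 18 cholesterol genes the median was -0.05 (0.29 by fold enrichment).

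Around these promoters, regions were less evenly spread. Within 100 kb of lipolysis genes, 25% of 855 fed regions were fed-only and 28.9% of 970 fasting regions fasting-only, beside 35.8% and 30.5% of all regions. Near glucocorticoid response genes they were 23.3% of 678 and 31.0% of 780, and near adipogenic factors 20.9% of 623 and 25.6% of 680. Near synthesis genes they were 35.1% of 891 and 26.4% of 829. Low fed-only shares were not particular to these lists. Near male germ cell genes the shares were 19.8% of 131 fed and 31.8% of 148 fasting regions. Near skeletal muscle genes they were 25.5% of 235 and 22.7% of 251. Among the 25 lists, only the Wolffian duct, epididymis, epithelium and brown adipocyte lists had a fed-only share above 35.8%. By nearest gene, Sgk1, a kinase gene induced by glucocorticoids, had 21 fasting-only and 4 fed-only regions, and Pdk4 had 14 and 2. The fatty acid transporter gene Cd36 had 22 and 10, Pparg, the master factor of adipogenesis, had 19 and 8, and Zbtb16 had 18 and 8. The opposite balance was seen, among others, at Mgll, the monoacylglycerol lipase gene, with 2 fasting-only and 30 fed-only regions, at Elovl6, an elongase gene, with 3 and 18, at Fasn with 0 and 8, and at Acly, which makes cytosolic acetyl-CoA, with 1 and 7. These genes were picked after their values were seen. Over the whole lists, more fasting-only than fed-only regions lay at 13 of 22 lipolysis genes and fewer at 6, and at glucocorticoid response genes at 12 of 18 and 3. For synthesis genes it was 6 of 20 and 9, with Acacb (17 and 8) and Elovl5 (12 and 8) among the 6. Such balances were not counted over all genes. Strong fasting-only and fed-only regions numbered 18 and 14 at lipolysis, 24 and 12 at glucocorticoid response and 15 and 29 at synthesis genes. Over all regions the strong ones numbered 4713 and 16211. Few of the regions at the named genes were strong. Strong fasting-only regions numbered 2 at Pdk4, 2 at Pparg and 3 to 5 at Sgk1, Cd36 and Zbtb16. Strong fed-only regions numbered 3 to 5 at Mgll, Elovl6, Fasn and Acly.

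Ranks of regions listed in both libraries were correlated, but many differed. Of the fed set, 95956 regions overlapped a region of the fasting set, with a Spearman correlation of 0.732 across regions, which are not replicates. The median rank was 5.53 points higher in fasting, 1.44 at 37187 promoter regions and 8.57 at 58769 others. The fasting list was longer by weak regions, which lifts its percentiles. With as many fasting regions ranked as the fed list holds, 156687, the medians were 2.18, 0.30 and 4.70. The rank was at least 20 points higher in fasting at 26.2% of these regions and at least 20 points lower at 4.76%, or at 20.9% and 8.08% with equal numbers ranked. Away from promoters they were 30.1% and 5.24%, or 24.1% and 8.84%. Levels scaled to background differed by a median log2 of -0.12 over all these regions, -0.25 at promoters and -0.02 elsewhere.

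At promoters, 15657 of 21951 genes had a region in both lists, 724 in fed alone, 645 in fasting alone and 4925 in neither. Of genes listed in both, 80.8% ranked within 5 points. The rank was at least 20 points higher in fasting at 925 genes (4.21%) and at least 20 points lower at 1016 (4.63%). Ranked among equal numbers of regions they were 681 and 1192. Among genes listed in both, the largest negative differences were at Slc34a2, a phosphate transporter gene of epithelia, with 188 tags and a rank of 89.2 in fed and 21 tags and 9.14 in fasting, and at Dusp26 (86.0 and 7.37). Insc (89.9), Dach2 (88.7) and Slfnl1 (88.4) each ranked 12.6 in fasting. The largest positive differences were at Tcf23 (7.13 and 81.0), Rgs18, a blood cell regulator of G proteins (0.129 and 71.1), and Fpr3, Fpr2 and Ccr9 (each 9.98 and 80.2). Fpr2 and Fpr3 are near copies in a family, so their reads may be split wrongly.

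These differences were unequal in level. At the 5 genes that ranked lower in fasting, the fed level was 10.2 to 18.8 times background. At the 5 that ranked higher, the fasting level was 5.28 to 6.98 times background and the fed level 2.79 to 3.49, near the end of the fed list.

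Markers of other cells of the depot were mixed. Of 10 macrophage genes, 3 ranked at least 20 points higher in fasting and none lower, against 4.21% and 4.63% of all genes. Trem2, a lipid-sensing receptor of macrophages, had 41 tags, 4.09 times background, and a rank of 43.2 in fed, and 57 tags, 9.70 times, and a rank of 88.8 in fasting. Adgre1, which encodes F4/80, had levels of 3.99 and 5.96 with ranks of 41.2 and 75.8, and Lyz2, lysozyme, had 5.09 and 7.15 with ranks of 49.6 and 74.0. Mrc1, just short of 20 points, and Fcgr1 (12.6) were listed in fasting alone. Cd68 ranked 98.6 and 97.6, Csf1r 83.8 and 80.5, and Itgam 70.0 and 52.0, so the list did not move as one. The summed level of the 10 was 137 times background in fed and 123 times in fasting, and the median difference in rank was 8.33 points, or 1.33 with equal numbers of regions ranked. Near macrophage genes, 33.5% of 278 fasting regions were fasting-only, beside 30.5% of all, and 26.9% of 242 fed regions were fed-only, beside 35.8%.

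Among 14 inflammation genes, Il1b, an inflammatory cytokine gene, had no fed region and ranked 55.3 with 23 tags in fasting. Ccr2, a monocyte chemokine receptor gene, ranked 9.98 and 38.1, and Il10, an anti-inflammatory cytokine gene, ranked 70.0 and 31.3. Tnf ranked 91.6 and 81.8 and Ccl2 ranked 85.6 and 91.5. Of the 10 T cell genes (median difference 0.0), 2 ranked at least 20 points higher in fasting, against 4.21% of all genes, and none lower. Il7r ranked 0 and 43.6 and Cd3d 50.1 and 71.1, while Cd3e, Cd3g, Cd4 and Cd8a had no region in either. Of the 8 endothelial genes (median 3.46, or -0.5 with equal numbers ranked), 2 ranked at least 20 points higher and none lower. Pecam1 ranked 37.7 and 75.8 and Tek 41.2 and 71.1, while Cdh5 ranked 70.5 and 69.4. Apart from Tnf and Ccl2, the levels behind these ranks were under 7 times background, so few tags decide them. The part of immune cells in the fasting-only regions was not tested.

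Of 8 adipose progenitor genes, 7 ranked higher and 1 lower in fasting. The median difference was 12.21 points, or 8.05 with equal numbers of regions ranked. Their summed level was 74.9 times background in fed and 69.8 times in fasting. At least 20 points higher (4.21% of all genes) were Pi16 (49.6 and 81.5), Dcn, the decorin gene (58.7 and 80.7), and Fap (34.3 and 55.3), and at least 20 points lower (4.63% of all) was Dpp4 (87.4 and 63.8). Dpp4 also ranked 97.1 and 97.4 in kidney. Mesothelial genes, which mark the lining of visceral fat, were split. Msln (48.2), Gpm6a (55.3) and Upk1b (22.8) had a region in fasting alone, Upk3b (24) had one in fed alone, and Krt19 ranked 63.6 and 12.6. Of 12 skeletal muscle genes, 2 ranked at least 20 points higher in fasting, against 4.21% of all genes, and none lower. They were Tnni2 (37.9 and 63.6) and Tnnt3 (36.2 and 67.0), and the median of the 12 was 0.7 points, or 0.0 with equal numbers ranked. The sperm gene Prm1 had a region of 36 tags in fed alone. Ucp1, the uncoupling protein of brown fat, had 30 tags in fed and no region in fasting, against ranks of 92.4 and 89.5 in brown adipose. Rgs5, a pericyte gene, and Cd79b, a B cell gene, had weak regions in fasting alone (ranks 12.6 and 2.23), and Cr2, another B cell gene, had one in fed alone, at rank 0.129.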

How the data were processed

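Nuclei of pooled tissue powder were cut with transposase and sequenced. The authors trimmed the reads, aligned them with Bowtie2 to GRCm38, removed duplicates and called peaks with MACS2, and the deposited lists give for each peak the fold enrichment (a ratio to the local background, with a pseudocount of 1) and its p and q as −log10 values. The lists hold no read counts, but summit tags were recovered from fold enrichment and −log10 p, and were whole within 0.001.

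Regions were ranked by −log10 p within each library and compared by overlap of 1 bp or more. Starts came from GENCODE vM21 (the study used another release), and sequences from RefSeq's GRCm38.p6. Nearby means within 100 kb. With 1 library per state there was no test. Shares carry exact Clopper-Pearson 95% intervals.

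The gene lists, words and regions were chosen with earlier results of these data known. Named were Adipoq and Lep, list genes with a rank difference of 20 points or a region in 1 library only, the 5 regions of highest rank per kind, the 5 genes and 5 windows of 200 kb with most state-only regions, and the 5 largest promoter rank differences each way. Other genes were chosen after their values were seen. Some items that this rule names are not reported here. Python 3.11.15, pandas 2.3.3, scipy 1.17.1 and pysam 0.24.0 were used, after tests on simulated data. The alternatives were stricter thresholds, thinning of fed tags to the fasting background, other overlaps, windows and ranking measures.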

Additional observations from a re-analysis of the deposited data

How the results depend on the processing

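With q under 1e-06 the fasting-only count was 5791 and the log2 ratio, fasting-only over fed-only, was -2.77 (-0.31 as reported). Among the 50000 strongest regions of each list there were 1081 fasting-only, 7335 fed-only and 7267 fed-only regions away from epididymis genes, with a log2 ratio of -2.76. With shared regions defined by overlap of 50% of both lengths there were 72967 fasting-only regions. Regions strong enough to be expected in the other list, a condition added after the data were seen, numbered 4713 fasting-only, 16211 fed-only and 16101 fed-only away from epididymis genes, with a log2 ratio of -1.78. Promoter shares of fed-only and fasting-only regions were 14.6% and 11.5% with a window of 1000 bp and 26.8% and 25.6% with q under 1e-06, and that of fasting-only regions was 25.8% after thinning. The median promoter rank difference of the epididymis list was -15.05 ranked by fold enrichment and 0.00 with a window of 1000 bp, which reached fewer regions. Fed-only regions outnumbered fasting-only regions under each alternative run.

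No paired analysis was possible because each state has 1 library. The fed library was deeper, and state, library and pool cannot be told apart. Regions below the end of each list, 2.79 times background in fed and 2.55 times in fasting, could not be seen.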
